A study of Mus musculus with 16 samples.

Results

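The clustered histone genes of the mouse were read here in poly(A)-selected RNA of pre-B cells, as the 70 of 38918 listed features whose names start with Hist1h, Hist2h, Hist3h or Hist4h. They comprise 6 genes of linker histone H1, 20 of H2A, 19 of H2B, 12 of H3 and 13 of H4. Of the 56 Hist1 genes, 55 lay within 2.22 Mb of chromosome 13 (mm10), and Hist1h2al lay apart from them on the same chromosome. The 10 Hist2 genes lay on chromosome 3, the 3 Hist3 genes on chromosome 11 and the 1 Hist4 gene on chromosome 6. All libraries came from preB-cells of Blnk-/- KO mice, in which the adaptor protein BLNK is missing, that had received a tamoxifen-inducible BLNK-ERt2 fusion by retrovirus. The control library and the libraries stimulated for 0.5, 1.5 and 5 h shared this genotype and this transgene. The labels state no vehicle for the control, no clone, and neither the age nor the number of mice. Each condition had 1 library read in 4 lanes, so no test across conditions was possible, and the lanes repeat the sequencing and not the cells.

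Clustered histone genes are the replication-dependent histone genes. They supply the bulk of histone protein when DNA is copied in S phase, and their mRNA is the known exception among animal mRNAs in lacking a poly(A) tail. It ends instead just after a short stem-loop that is bound by the stem-loop binding protein, encoded by Slbp. Some of these genes also give longer, polyadenylated transcripts that run past the stem-loop, and poly(A) selection retains RNA with a tail. Because many copies within a class are nearly identical, reads often match several of them. The tables therefore give total exon reads and, separately, the unique exon reads that match 1 place.

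The stem-loop was compared among the annotated transcripts of these genes. The 16-base motif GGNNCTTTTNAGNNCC was searched on the sense strand of the longest GENCODE vM21 transcript of each gene. It was in 43 of the 70 histone transcripts and in 24 of 18604 other protein-coding genes (0.129%), and the antisense strand of the histone transcripts held 0. The forms are shown because they set the H4 genes apart from the other classes, which share forms among themselves. The 4-base loop is in capitals, between the 6-base arms of the stem.
Form in 25 genes, none of them H4: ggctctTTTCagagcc
Form in 7 H4 genes: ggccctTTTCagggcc
Form in 6 genes of H1, H2B and H3: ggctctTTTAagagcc
Form in the H4 genes Hist1h4i and Hist2h4: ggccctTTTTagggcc
Form in the H4 genes Hist1h4b and Hist1h4j: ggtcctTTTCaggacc
Form in Hist2h2ac: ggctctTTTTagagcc
All 11 H4 transcripts with the motif had a stem that the other classes did not have. For the other 27 genes the result says only that these letters are not in the annotated transcript.

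The annotated end after the stem-loop differed among the 43 transcripts. In 20 of them no more than 60 bases followed, and 1 of these 20, Hist1h2ap, reached a mean of 1 CPM over the 4 libraries (CPM, exon reads scaled to a library of 1000000 exon reads). In the other 23 the annotation ran further, and 8 of these reached 1 CPM. Longer annotated exons collect more reads, so the levels were also taken per kilobase of exon, where the medians were 0.661 CPM per kb for the short transcripts and 0.744 for the extended ones. The polyadenylation signal AATAAA stood in the last 40 bases of 12 histone transcripts, against 57.1% of other protein-coding genes. Per kilobase the median level was 0.733 CPM per kb for these 12 and 0.572 for the other 57 with an exon length. For those others the result says only that the annotated transcript does not end with these letters. Some annotated transcripts are short, such as Hist1h4k with 312 bases. The levels rest on the deposited exons, which can differ from the annotated transcript (Hist2h2bb, 1666 against 381 bases). The last 30 bases of 5 transcripts are shown, of 4 genes with many reads and of the gene that passed the size rule given further on. Capitals mark AATAAA or the stem-loop, and the ends of Hist1h4i and Hist1h2be hold neither.
Hist1h1c: ttctAATAAAaagcgtttagttttcattca
Hist2h2be: ttattattAATAAAgttaccgattagtttc
Hist1h4i: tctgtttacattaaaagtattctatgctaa
Hist1h2be: tgtgttccttattaaagcattcctgattga
Hist1h2ap: aaaaaaaaaaaGGCTCTTTTCAGAGCCatc

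Few histone reads were present. The 4 libraries held between 30746189 and 34533362 total exon reads, of which 84.0 to 84.6% were unique, and the 70 genes together took 0.0166% of them in the control, 0.0182% at 0.5 h, 0.0151% at 1.5 h and 0.0176% at 5 h. Summed over the genes this was 166, 182, 151 and 176 CPM in total reads and 155, 164, 132 and 158 CPM in unique reads. In bulk RNA, fewer cells with an RNA and less of it per cell cannot be told apart. The number of genes with at least 1 CPM was 13, 16, 14 and 15 in total reads and 11, 12, 11 and 14 in unique reads, in the same order. The median gene had 0.352 to 0.428 CPM in total reads. A count of 0 allows up to 3 reads, which is 0.0869 to 0.0976 CPM, and all intervals below are exact Clopper-Pearson 95% intervals that cover counting error only. Chi-square values of the histone genes over the lanes, divided by their degrees of freedom, were 1.19 to 1.39 for total reads and 0.790 to 1.17 for unique reads, so intervals from total reads are somewhat too narrow. The pre-B cell identity was plain in the same libraries. The pre-B cell markers Cd79a, Cd79b, Vpreb1, Igll1, Ighm and Pax5 each had at least 282 CPM in every library. Of the T and NK cell markers, Cd4 and Ncr1 were at 0, and the stromal markers summed to at most 0.203 CPM. Myeloid markers summed to 72.2, 69.3, 61.4 and 38.2 CPM, and erythroid markers to 8.62 to 10.3 CPM. Their part in the histone values was not tested.

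**Figure D1:**
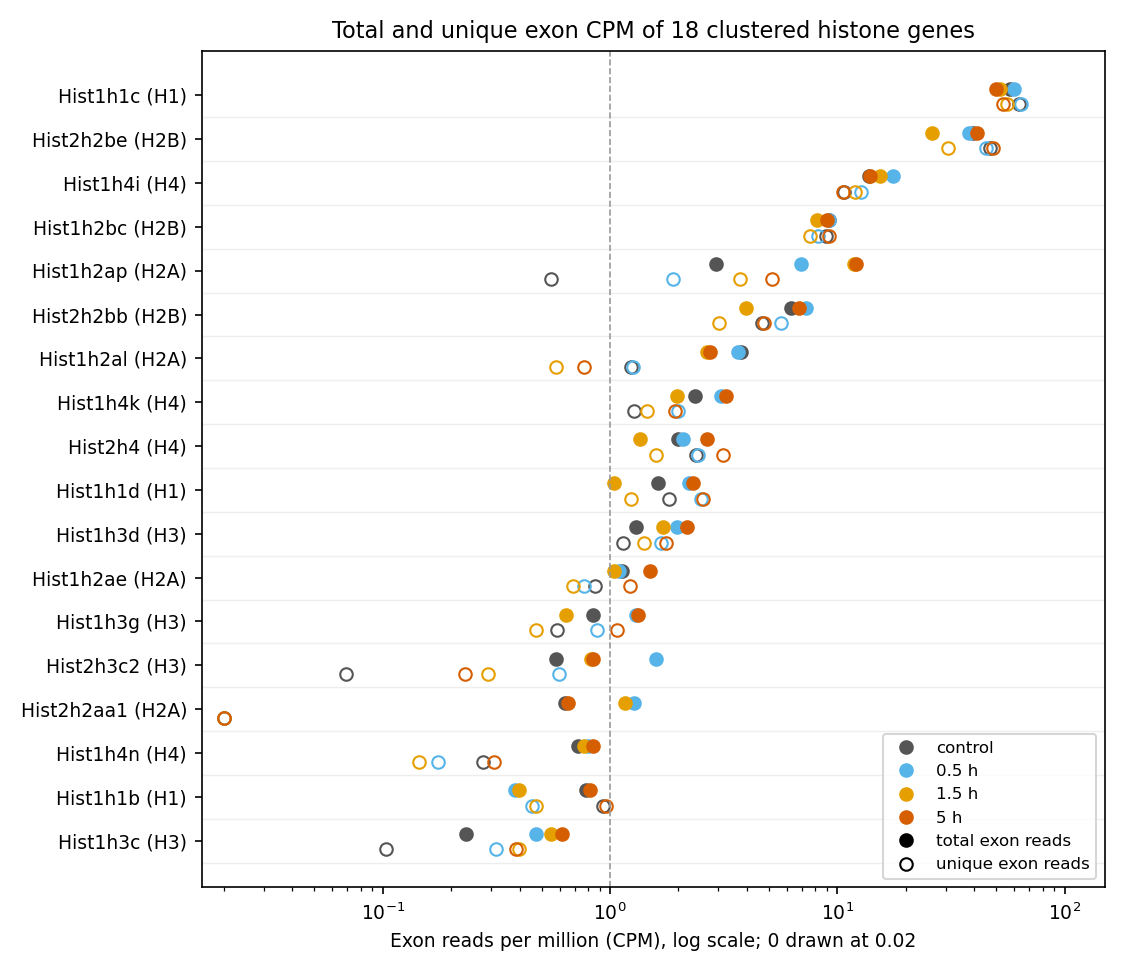
CPM on a log scale of the 18 named histone genes in the 4 libraries (colours), from total exon reads (filled) and from unique exon reads (open); a value of 0 is drawn at 0.02 and the dashed line marks 1 CPM. Hist1h1c and Hist2h2be lie far to the right in both, and Hist1h2ap spans 2.92 to 12.1 CPM in total reads.

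The reads were concentrated in few genes. Hist1h1c alone held 32.5% of the total histone reads, Hist1h1c and Hist2h2be together 53.9%, and the 5 leading genes (with Hist1h4i, Hist1h2bc and Hist1h2ap) 73.1%. In unique reads the same 5 genes held 82.0%. Per kilobase of exon the order of the mean level was Hist1h1c with 35.0 CPM per kb, Hist1h4i with 28.2, Hist1h2ap with 16.3, Hist2h2be with 13.8 and Hist1h2bc with 12.1. A list of 11 histone genes outside the clusters, most of them known for polyadenylated mRNA, had far more reads: they summed to 3564 CPM in the control, 21.5 times the 70 clustered genes.

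Among the H1 genes, which encode the linker histone that binds DNA between nucleosomes, Hist1h1c (chr13:23738807-23740366, 1 exon) had 57.4 CPM in the control, 59.5 at 0.5 h, 52.0 at 1.5 h and 49.7 at 5 h in total reads. In unique reads it had 62.8, 64.4, 55.98 and 53.5 CPM, and 91.3% of its reads were unique. Both read types put it a little lower at the later times: the ratio to control at 5 h was 1.16-fold lower (1.08 to 1.24) in total and 1.17-fold lower (1.09 to 1.26) in unique reads. The lanes of the control ranged from 54.4 to 59.8 CPM and those at 5 h from 46.1 to 51.8 CPM, without overlap. Hist1h1d, another linker histone gene, had 1.62, 2.21, 1.04 and 2.31 CPM, with 95.8% of its reads unique. Hist1h1b had only 13 to 27 reads per library (0.383 to 0.813 CPM), every one of them unique. The testis gene Hist1h1t had 1 read in all.

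H2B, one of the core histones, was lower at 1.5 h than in the other libraries. Its 19 genes summed to 63.9, 63.8, 45.7 and 67.7 CPM in total reads and to 65.6, 64.7, 45.5 and 68.0 CPM in unique reads. At 1.5 h the sum was 1.40-fold below control (1.31 to 1.49) in total and 1.44-fold below (1.34 to 1.55) in unique reads. Hist2h2be (chr3:96221121-96223738, 1 exon) carried most of this, with 39.6, 38.0, 26.1 and 41.1 CPM in total reads, of which 99.7% were unique. Its 4 lanes at 1.5 h lay between 24.6 and 28.4 CPM, below all 12 lanes of the other libraries, which ranged from 36.2 to 43.3 CPM. It was 1.52-fold lower than control at 1.5 h (1.39 to 1.65) and 1.04-fold higher at 5 h (0.960 to 1.12), so it stayed short of the 2-fold rule used for calls. Hist2h2bb, a second H2B gene of chromosome 3, had 6.25, 7.29, 3.95 and 6.77 CPM and was 1.58-fold lower at 1.5 h (1.27 to 1.98). Hist1h2bc had 9.21, 9.15, 8.12 and 9.04 CPM, and its 1.5 h interval included no difference. Without Hist2h2be the other H2B genes were still 1.24-fold lower at 1.5 h (1.12 to 1.38). Hist1h2be, chosen after its values were seen, had 4.78, 4.93, 3.71 and 5.56 CPM in its exons. Its 624 exon reads stood beside 8090 reads over its whole listed span, introns included, so reads outside its exons dominate that locus.

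**Figure D2:**
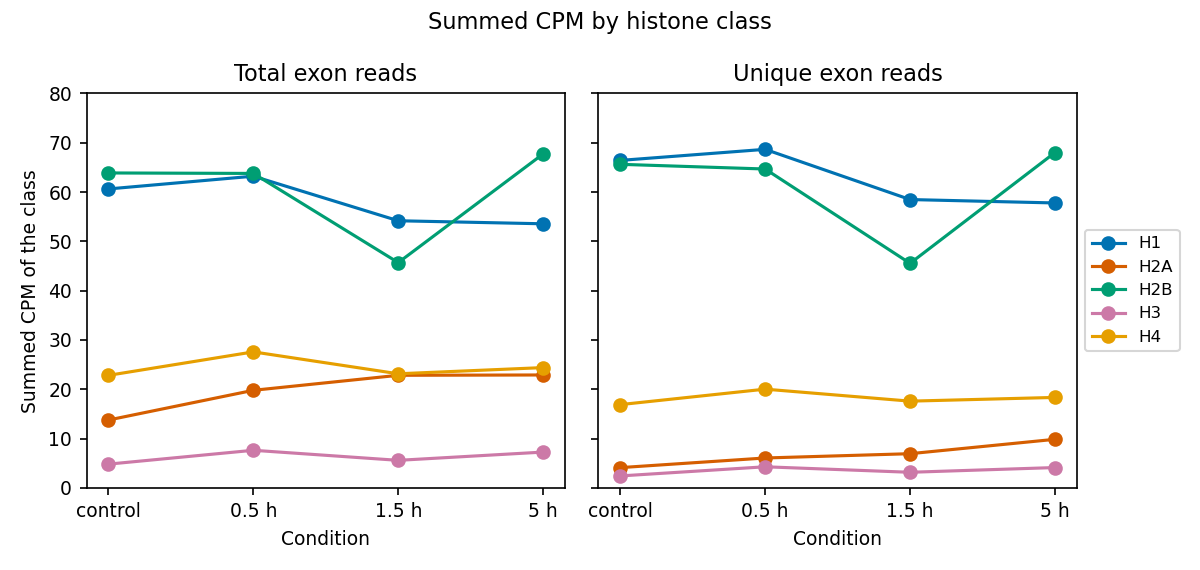
Summed CPM of each histone class in the control and stimulated libraries, from total exon reads (left) and unique exon reads (right), 1 library per point. In total reads H2B is at 45.7 CPM at 1.5 h and between 63.8 and 67.7 CPM in the other libraries, while H2A is at 13.8 CPM in the control and 22.9 CPM at 5 h.

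H2A, another core histone, summed to more than control at every time. Its 20 genes summed to 13.8 CPM in the control, 19.8 at 0.5 h, 22.8 at 1.5 h and 22.9 at 5 h in total reads, and to 4.10, 6.06, 6.93 and 9.84 CPM in unique reads. The ratio to control in total reads was 1.44 (1.28 to 1.62), 1.66 (1.48 to 1.87) and 1.66 (1.48 to 1.87), and in unique reads 1.48 (1.16 to 1.88), 1.69 (1.34 to 2.14) and 2.40 (1.92 to 3.01). A single gene made up most of the difference. Hist1h2ap, which encodes a core histone H2A protein, lies on the minus strand of chromosome 13 (chr13:21833057-21833575, 1 exon) and had 2.92, 6.91, 11.9 and 12.1 CPM in total reads, from 101, 234, 387 and 371 reads. The lanes of the control held 26, 33, 29 and 13 of these reads, those at 0.5 h 66, 64, 47 and 57, those at 1.5 h 94, 92, 99 and 102, and those at 5 h 87, 95, 102 and 87. All control lanes were below all 0.5 h lanes, and these were below all lanes at 1.5 and 5 h, which overlapped each other. In unique reads it had 0.551, 1.89, 3.73 and 5.15 CPM, from 16, 54, 103 and 134 reads, in the same order. The ratio to control was 2.36 (1.86 to 3.01), 4.06 (3.25 to 5.10) and 4.13 (3.30 to 5.19) in total reads and 3.43 (1.93 to 6.42), 6.77 (3.98 to 12.3) and 9.35 (5.55 to 16.8) in unique reads. From 1.5 to 5 h total reads differed by 1.02-fold (0.880 to 1.18) and unique reads by 1.38-fold (1.06 to 1.801). The other 19 H2A genes summed to 10.8, 12.9, 10.97 and 10.8 CPM in total reads and to 3.55, 4.17, 3.19 and 4.69 CPM in unique reads. Their ratio to control was 1.19 (1.03 to 1.37) at 0.5 h in total reads and 1.32 (1.01 to 1.74) at 5 h in unique reads, and the other 4 intervals included no difference.

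**Figure D3:**
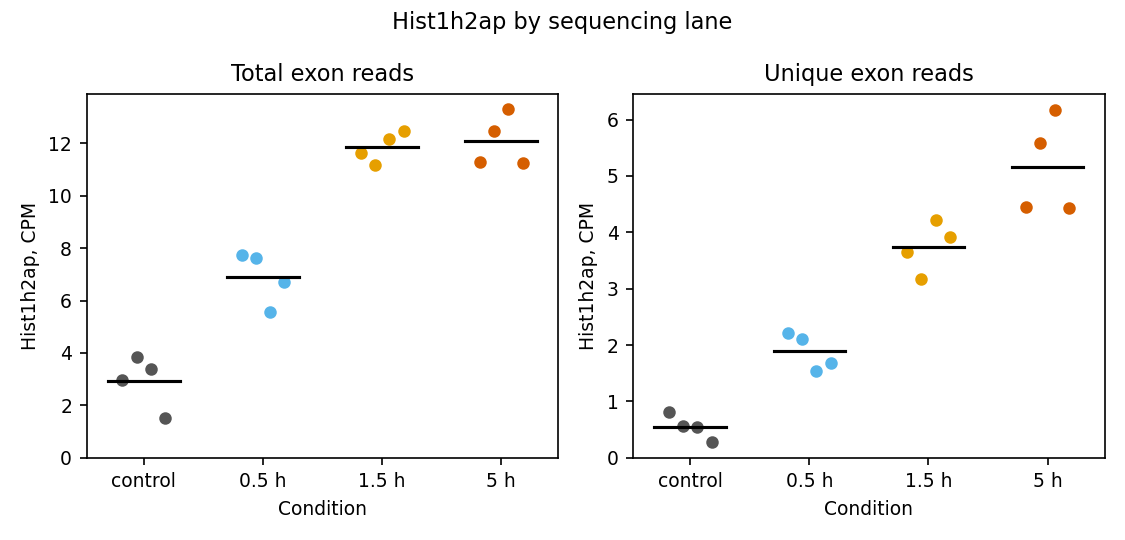
Hist1h2ap CPM in each of the 4 lanes (points) and in the summed library (line) by condition, from total exon reads (left) and unique exon reads (right). The control lanes lie below the stimulated lanes in both panels; lanes are repeat readings of 1 library.

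A gene was called different where its CPM, with 1 CPM added to both libraries, differed by at least 2-fold and the higher library had at least 5 CPM. The 3 comparisons share the control library. Of the 70 histone genes 6, 6 and 7 reached 5 CPM in either library at 0.5, 1.5 and 5 h. Hist1h2ap was the 1 gene called higher at each time, and 0 were called lower. Over all genes that reached 5 CPM, 0.284% were called higher and 0.021% lower at 0.5 h, 0.641% and 0.21% at 1.5 h, and 0.336% and 0.399% at 5 h. At 0.5 h Hist1h2ap stood at the edge of the rule, with a log2 ratio of 1.01 on that scale, and it lost the call without lane 1 (0.97) or without lane 4 (0.86). In unique reads Hist1h2ap was called at 5 h and at neither earlier time, where it was under 5 CPM. The shares of all genes called in unique reads were 0.259% higher and 0% lower at 0.5 h, 0.593% and 0.183% at 1.5 h, and 0.302% and 0.377% at 5 h. Short of calls, log2 ratios were taken for the histone genes with at least 1 CPM in the control or the stimulated library. Their median was 0.23 at 0.5 h (12 of 16 above 0), -0.18 at 1.5 h (4 of 14) and 0.23 at 5 h (12 of 15). Over all genes chosen in the same way the medians were -0.0028, -0.014 and -0.0046. In the control only 13 histone genes reached 1 CPM. Some genes thus entered only through the stimulated library, and their ratios lie above 0 by this choice. The counts above 0 and the medians at 0.5 and 5 h are therefore not read as a rise.

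Hist1h2ap has a near copy that limits what its reads can say. Its GENCODE transcript is 482 bases long, and 452 of them are found without a mismatch in the transcript of Hist1h2ao, 22.1 kb away on the opposite strand. Only 30 of the 433 windows of 50 bases in Hist1h2ap were found in no annotated transcript of another gene. The shared run begins at the annotated start of Hist1h2ao, and these windows reach before it. Whether they occur elsewhere in the genome was not tested. Its unique share was 15.8% in the control (9.33 to 24.4), 23.1% at 0.5 h, 26.6% at 1.5 h and 36.1% at 5 h (31.2 to 41.2), so the unique share was not constant over the conditions. Hist1h2ao had 19, 15, 7 and 10 total reads in the control and at 0.5, 1.5 and 5 h, 51 in all with 1 unique. In total reads it stood at 0.390 of control (0.139 to 0.969) at 1.5 h and 0.591 (0.246 to 1.34) at 5 h. How reads with several matches were divided between copies is not given in the sources used here. With both genes added together, the total was 3.47, 7.35, 12.1 and 12.4 CPM, and the ratios to control were 2.12 (1.70 to 2.65), 3.47 (2.83 to 4.30) and 3.57 (2.90 to 4.42). With 1 CPM added the log2 ratio of the pair at 0.5 h was 0.90, so the pair was not called at that time. Reads of the pair could also come from other near copies: the transcripts of Hist1h2aj, Hist1h2an and Hist1h2ai were 98.5 to 98.7% identical to Hist1h2ap where they aligned. These 3 genes had 55, 23 and 49 reads. In the control and at 0.5, 1.5 and 5 h Hist1h2aj had 16, 16, 9 and 14 of them. Hist1h2an had 3, 9, 8 and 3, and Hist1h2ai 7, 16, 13 and 13, in the same order. Hist1h2af, 98.2% identical, had 7, 8, 11 and 1 reads in the control and at 0.5, 1.5 and 5 h. Hist1h2ah, 98.0% identical, had 7, 12, 22 and 24 reads in the same order. Its ratio to control was 3.33 (1.37 to 9.22) at 1.5 h and 3.85 (1.61 to 10.6) at 5 h in total reads. It had 2, 3, 6 and 10 unique reads, and 44 of its 65 reads were not unique. Whether those came from Hist1h2ah, from Hist1h2ap or from another copy cannot be told. Hist1h2ah was named after its values were seen, and at under 1 CPM it could not be called.

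The transcript end of Hist1h2ap holds a run of A. It is 12 bases long and stands directly before its stem-loop, at bases 452 to 463 of the transcript, and Hist1h2ao has the same run. A run of at least 10 A was in 4 of the 70 histone transcripts (Hist1h2ac, Hist1h2ao, Hist1h2ap and Hist1h2be) and in 15.7% of other protein-coding genes. Whether such a run was captured in the poly(A) selection was not tested. The stem-loop lies at chr13:21833029-21833044 in the annotated 3′ UTR, outside the deposited exon, which stops 31 bases before the GENCODE end on that side and runs 68 bases further at the 5′ side. The promoters of both genes, from RefSeq on GRCm38.p6, share a run of 200 identical bases. This run starts at the first base of the Hist1h2ap window and stops at the last base of the Hist1h2ao window. The windows are thus offset against each other, and where the identity ends on either side cannot be read from them. They are shown because the reads cannot separate the genes in most of their length and the upstream sequence is shared too. Capitals mark CCAAT, its complement ATTGG, and TATAA, searched on both strands.
Hist1h2ap, chr13:21833426-21833725, minus strand: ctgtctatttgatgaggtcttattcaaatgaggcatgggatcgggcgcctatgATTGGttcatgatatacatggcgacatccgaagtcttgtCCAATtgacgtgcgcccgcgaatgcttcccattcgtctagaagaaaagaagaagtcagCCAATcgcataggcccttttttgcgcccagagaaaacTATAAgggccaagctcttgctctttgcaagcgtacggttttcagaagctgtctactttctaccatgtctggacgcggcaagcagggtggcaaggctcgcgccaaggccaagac
Hist1h2ao, chr13:21810117-21810416, plus strand: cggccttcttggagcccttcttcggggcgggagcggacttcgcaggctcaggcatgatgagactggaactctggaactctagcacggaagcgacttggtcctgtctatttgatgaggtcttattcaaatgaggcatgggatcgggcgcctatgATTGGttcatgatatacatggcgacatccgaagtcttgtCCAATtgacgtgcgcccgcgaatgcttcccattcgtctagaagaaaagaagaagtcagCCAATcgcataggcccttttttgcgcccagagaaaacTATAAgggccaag
RefSeq promoters of 300 bases were found for 62 of the 70 genes (63 promoters). TATAA was in 50 of the 63 (79.4%) and in 24.9% of all 32851 promoters. At least 2 copies of CCAAT were in 45 of the 63 (71.4%) and in 11.5% of all. The classes differed in this: most H4 promoters held no CCAAT on either strand, and most H1 promoters held 1. Windows of neighbouring genes can overlap, as for Hist1h2ao and Hist1h2bq, so a copy can count for both genes.

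The other H2A genes had few reads each. Hist1h2al, which RefSeq lists as a transcribed pseudogene, had 3.76, 3.66, 2.67 and 2.76 CPM with 25.4% of its reads unique. Hist1h2ae had 1.13, 1.09, 1.04 and 1.50 CPM with 62.8% unique. Hist2h2aa1 had 0.637, 1.27, 1.16 and 0.650 CPM from 123 reads, of which 0 were unique. Its neighbour Hist2h2aa2 also had 0 unique reads of 98. Features of unstated strand (Gm20633 and Gm20634) overlap Hist2h2aa1, and reads of both strands cannot be told apart there.

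H4, among the most conserved of all proteins, was led by Hist1h4i (chr13:22040816-22041352, 1 exon). It had 13.7, 17.5, 15.5 and 13.9 CPM in total reads and 10.6, 12.7, 11.97 and 10.6 CPM in unique reads, with 63.9% unique. At 0.5 h it was 1.28-fold higher than control (1.13 to 1.45) in total reads and 1.19-fold higher (1.02 to 1.39) in unique reads, and the intervals at 1.5 and 5 h included no difference. Hist2h4, with 99.6% unique reads, had 1.998, 2.10, 1.35 and 2.67 CPM. Hist1h4k had 2.37, 3.07, 1.96 and 3.25 CPM with 52.6% unique, and Hist1h4n 0.724 to 0.846 CPM with 24.3% unique. The H4 class summed to 22.8, 27.6, 23.1 and 24.4 CPM.

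H3, whose tail carries many of the known histone marks, had the fewest reads: its 12 genes summed to 4.81, 7.62, 5.58 and 7.25 CPM in total reads and to 2.41, 4.27, 3.15 and 4.11 CPM in unique reads. Hist1h3d had 1.30, 1.98, 1.72 and 2.18 CPM with 70.6% unique. Hist1h3g had 0.840, 1.30, 0.644 and 1.33 CPM, and Hist1h3c 0.232, 0.472, 0.552 and 0.618 CPM. Hist2h3c2 had 0.579, 1.59, 0.827 and 0.846 CPM. At 0.5 h it was 2.75-fold above control (1.62 to 4.86), from 54 reads against 20, and at under 5 CPM it could not be called.

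The unique share ordered the classes. Over all 4 libraries 91.6% of H1 reads were unique (90.9 to 92.2), 85.4% of H2B reads (84.6 to 86.1), 62.7% of H4 reads (61.0 to 64.4), 46.6% of H3 reads (43.1 to 50.03) and 28.5% of H2A reads (26.8 to 30.3). The intervals do not overlap, but the share of H2B rests on 1 gene: without Hist2h2be it was 63.7%, and without Hist1h1c that of H1 was 96.0%. Over all classes it was 76.1%, and by library 78.8% in the control, 75.9% at 0.5 h, 73.5% at 1.5 h and 76.0% at 5 h. Gene by gene, 58 histone genes had at least 20 reads. Their median unique share was 48.1%, and 30 of the 58 (51.7%) lay under 50%. Over all 13093 features with as many reads the median was 99.95% and 13.6% lay under 50%. For 8 histone genes (Hist1h2bq, Hist1h2br, Hist1h4b, Hist2h2aa1, Hist2h2aa2, Hist2h3b, Hist2h3c1 and Hist3h2a) no read was unique. Of the 70, with no cutoff on reads, 9 genes had at least 90% unique reads, 25 had 50 to under 90%, 23 had 10 to under 50% and 12 had under 10%. With at least 20 reads these numbers were 7, 21, 18 and 12. Hist3h2bb-ps, listed by RefSeq as a pseudogene, had no exon read.

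**Figure D4:**
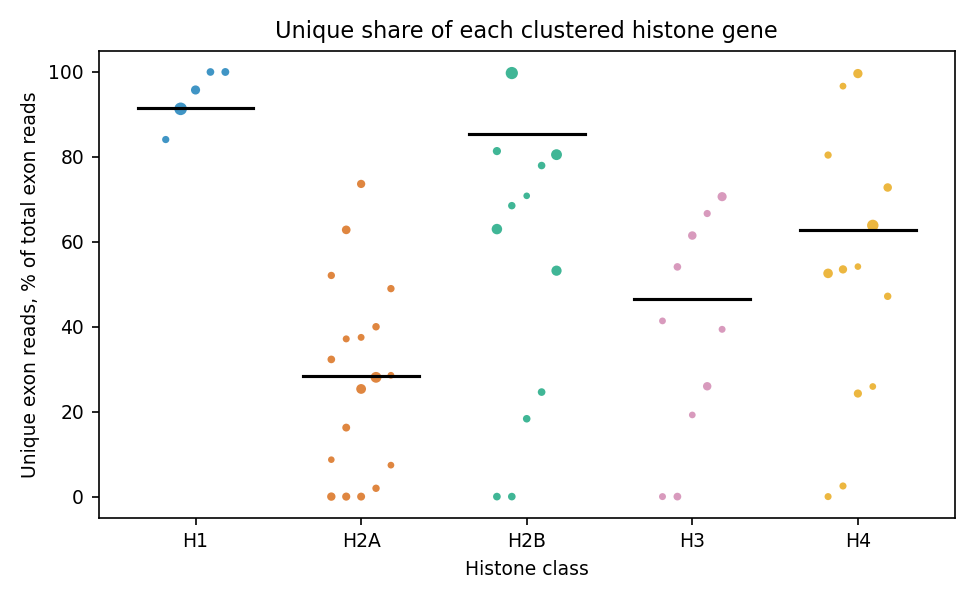
Unique exon reads as a percent of total exon reads over the 4 libraries, 1 point per histone gene with at least 20 reads (larger points, more reads), by class; lines give the share of the whole class. H1 genes lie at 84.1% or above, and H2A genes reach 73.6% at most.

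The unique share followed the sequence copies in the annotation. For 31 genes with at least 50 reads and a GENCODE transcript within 20% of the deposited exon length, the percent of 50-base windows found in no other gene was set beside the unique share. Across genes Spearman's rho was 0.85 and Pearson's r 0.86, as a description over genes that share libraries and sequence. The read length is not given in the sources used here, so 50 bases is a choice. Several genes departed from the relation. Hist3h2a, which lies within the span of Trim17, had 68.5% such windows and no unique read among 86. Hist1h2aj had 6.93% such windows and 22 unique reads of 55, and Hist1h2be 82.1% such windows and 53.2% unique reads. Among further departures, Hist1h2bg had 50.3% such windows and 81.4% unique reads, Hist1h4k 28.5% and 52.6%, and Hist1h2bj 40.6% and 18.3%.

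**Figure D5:**
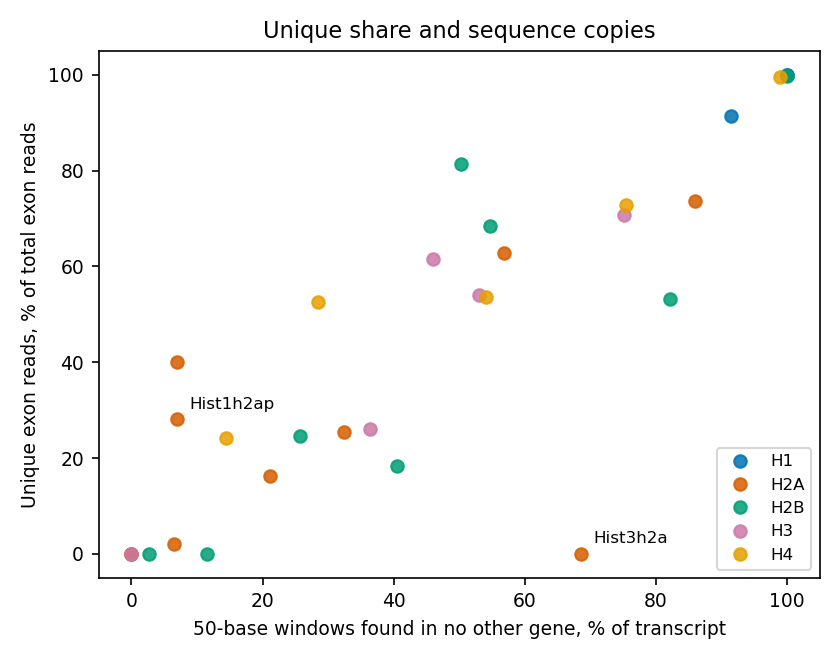
Unique exon reads as a percent of total exon reads against the percent of 50-base windows of the transcript found in no other gene, for 31 histone genes coloured by class. Most genes lie along the diagonal, Hist1h2ap lies above it and Hist3h2a at the lower right.

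Genes that act with the clustered histones were read from lists of partner genes, and 0 of their members were called in any comparison. Over all genes that reached 5 CPM, only 0.021 to 0.641% were called per direction and time. A count of 0 in lists this short is near that share and does not set them apart. Of 25 genes for histone transcription, 3′ end formation and decay, 24 reached 5 CPM and 0 were called higher or lower at any time, with median log2 ratios of 0.02, 0.08 and 0.04. Slbp, the stem-loop binding protein, had 113, 119, 120 and 95.7 CPM, and Npat, the cyclin E target that switches on histone transcription, 53.2, 56.1, 63.7 and 56.2 CPM. The furthest from control were Cpsf2 (233 CPM in the control, 353 at 5 h), a cleavage complex subunit, Ccne2 (28.99 and 19.7 CPM) and Ccne1 (34.7 and 23.8 CPM), both E cyclins, and Casp8ap2 (74.0 CPM in the control, 94.1 at 1.5 h). Of 14 histone chaperone genes 0 were called, with Chaf1b, a subunit of the assembly factor CAF-1, at 43.7 CPM in the control and 28.2 at 5 h. Asf1b had 156 and 116 CPM at the same times, Asf1a 12.02 and 15.97, and Npm1 1292 and 1629. Of 20 DNA replication genes 0 were called, and at 5 h 17 of the 20 had a log2 ratio below 0 (median -0.16), with Uhrf1 at 437 CPM in the control and 272 at 5 h, Gins2 at 9.24 and 5.95, Mcm5 at 331 and 238, and Lig1 at 245 and 177. Of the 11 histone genes outside the clusters 8 reached 5 CPM and 0 were called. H2afj had 72.9, 85.5, 102 and 94.4 CPM, H2afv 157, 152, 132 and 121 CPM, H2afx 281, 320, 260 and 227 CPM, and H3f3b 815, 809, 761 and 675 CPM. Their medians at 0.5, 1.5 and 5 h were -0.02, -0.11 and -0.21, beside -0.0028, -0.014 and -0.0046 over all genes. H2afx, which encodes a variant that is also made from a stem-loop mRNA, was 1 of the 24 other genes with the stem-loop motif.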

How the data were processed

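RNA of mouse preB-cells was poly(A)-selected and sequenced on an Illumina HiSeq. The submitters' processing notes name CASAVA 1.8.2 and mm10. No aligner, counting program, strand setting or read length was given in the sources used here. Whole-number counts of reads per feature and lane were deposited by the authors, not normalized per the file headers, as total and unique reads over exons and over genes. The 16 samples are 4 lanes of 4 libraries, with 1 index per condition. Lanes were summed, 0 columns were unmatched, and the control counts in the 3 tables had 0 clashes.

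Reads were scaled to CPM by the sum over all features, separately for total and unique exon reads (Python 3.11.15, pandas 2.3.3, SciPy 1.17.1). The size rule and intervals were tested on simulated reads with counting error only and with changes well above 2-fold. Changes near 2-fold and variation between cultures were not covered by that simulation. There is 1 library per condition, so no p-value was computed. The alternatives used edgeR 4.0.16 (TMM) and DESeq2 1.42.0 (size factors). Sequences came from GENCODE vM21 and RefSeq. All 70 genes matched by name and overlapped the deposited position, but only 29 had the same start and end in GENCODE. The transcripts searched can thus differ from the exons in which reads were counted. Named genes are the 3 per class with the highest mean CPM in total and in unique reads, called genes, and, with at least 100 reads, the 3 lowest and the 3 highest unique shares. From each list of partner genes, the 4 with the largest log2 ratios were named, with Slbp and Npat added afterwards. The members and lists were chosen with earlier results of these data known.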

Additional observations from a re-analysis of the deposited data

Results flagged for a closer look

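Among 163 sets of 4 lanes with at least 20 reads (the 18 named genes, the classes and the sum, in total and unique reads), 8 (4.91%) held a lane far from the other 3, where chance gives about 1 in 20. Hist1h1b in the control had 0.232 CPM in lane 3 in total reads, against 0.924 to 1.03 in the others, and 0.276 CPM in unique reads. Hist1h2al at 0.5 h had 1.97 unique CPM in lane 3, against at most 1.11. Hist1h2bc in the control had 6.89 CPM in lane 1, against 9.82 to 10.2, and at 5 h it had 11.8 unique CPM in lane 1, against at most 8.55. Hist2h2bb at 0.5 h had 6.28 CPM in lane 3, against 7.499 to 7.72 in the others. Hist2h3c2 at 1.5 h had 0.247 CPM in lane 1, against at least 0.972. The H4 sum at 5 h was 22.6 CPM in lane 1, against at least 24.8.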

How the results depend on the processing

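Hist1h2ap was the 1 gene called at 0.5, 1.5 and 5 h. At 0.5 h the count of called genes was 0 with 5 CPM added, in gene reads and in unique exon reads, and 0 to 1 when each lane was left out. At 1.5 h it was 0 in unique reads. Its log2 ratio at 0.5 h was 0.90 in unique reads, 0.98 in gene reads, 0.59 with 5 CPM added and 0.90 summed with Hist1h2ao, a comparison chosen after seeing the data. The pair of genes was thus not called at 0.5 h. The other alternatives for the count of called genes kept 1 call. The lanes share a number across conditions, and the replicate block by lane gave log2 ratios of 1.04, 1.75 and 1.77 for Hist1h2ap and of 0.13, -0.13 and 0.08 for the summed CPM, and it changed no call. The main log2 ratios of the sum were 0.13, -0.13 and 0.08. In unique reads they were 0.0745, -0.24 and 0.0245, in gene reads -0.20 at 1.5 h and 0.19 at 5 h, and without Hist1h2ap (chosen after seeing the data) -0.22 at 1.5 h and 0.0072 at 5 h. Gene reads weigh the Hist1h2be locus heavily. It had 1981, 2070, 1550 and 2489 gene reads in the control and at 0.5, 1.5 and 5 h, beside 165, 167, 121 and 171 exon reads. Unique shares from gene reads were 83.0, 80.9, 78.5 and 81.8% in the control and at 0.5, 1.5 and 5 h. Detected genes in the same order numbered 5, 6, 5 and 7 at 5 CPM and 60, 62, 61 and 58 at 0.1 CPM. The cause of these differences was not tested. Most members were under 5 CPM in every library and could not be called, and 1 library per condition leaves variation between cultures unmeasured.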
